A study of Homo sapiens with 6 samples.

Results

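The MYC, MAX and antagonist network is a set of basic helix-loop-helix leucine zipper transcription factors, and its transcripts were measured in SW480 cells after 24 h with DMSO, the solvent control, or with MPM-1, a fluorescent probe that accumulates in mitochondria (coded WT4 in the sample names). The 10 members, MYC, MAX, MXD1, MXI1, MXD3, MXD4, MNT, MGA, MLX and MLXIP, were taken by their symbols, and all 10 were among the 12982 genes of the expression table. SW480 is an established human colorectal adenocarcinoma line, both groups carry the label WT for genotype, and each group held 3 libraries. The dose of MPM-1 used for sequencing was not given in the sources used here, and nothing states that the libraries came from separate cultures, so that p-values measure the spread between these libraries only.

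MYC activates growth genes by pairing with MAX, and the pair binds the E-box sequence CACGTG. The MXD proteins (MXD1, MXI1, MXD3 and MXD4), MNT and MGA also pair with MAX at E-boxes, but they recruit repressors: the MXD proteins and MNT bring the SIN3-HDAC corepressor, and MGA brings a Polycomb complex, PRC1.6. MLX is a second hub that pairs with MLXIP (MondoA) and MLXIPL (ChREBP), which sense glucose-derived metabolites, and it can also bind some MXD proteins and MNT. In colorectal cancer MYC is a well-known target of Wnt and beta-catenin signalling, and MXD1 is typical of differentiating epithelium.

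The binding motif itself can be seen in the promoters of some members. RefSeq promoter windows on GRCh38.p14, which span 250 bases before to 50 bases after a start site, had an entry for 9 of the 10 members, all but MYC, and 3 of these, MNT, MXD4 and MLX, held CACGTG. This motif reads the same on both strands. Counted by gene, 8.8% of all genes with an entry held it in any window, and counted by window, 2548 of all 35116 (7.26%) did. The stretches that contain it are given here 5′ to 3′ on the strand of the gene, ending before the first annotated exon, with CACGTG in capitals. That of ARRDC4, the listed MLX target with the second largest fall below, is added for comparison. TXNIP, the listed target with the largest fall, has 2 windows, and neither holds CACGTG. The MNT stretch is chr17:2401201-2401300 (minus strand), the MXD4 stretch is chr4:2262295-2262359 (minus strand), the MLX stretch is chr17:42567000-42567067 (plus strand) and the ARRDC4 stretch is chr15:97960453-97960552 (plus strand).
MNT: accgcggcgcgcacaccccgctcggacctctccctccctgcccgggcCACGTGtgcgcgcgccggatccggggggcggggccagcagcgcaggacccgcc
MXD4: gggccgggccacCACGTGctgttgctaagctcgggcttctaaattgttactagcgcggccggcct
MLX: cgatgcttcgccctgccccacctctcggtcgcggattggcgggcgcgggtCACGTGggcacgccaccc
ARRDC4: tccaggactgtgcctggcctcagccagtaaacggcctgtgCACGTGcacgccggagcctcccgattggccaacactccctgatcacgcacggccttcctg
These 4 genes did not move together: MNT and MLX rose, whereas MXD4 and ARRDC4 fell.

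The MXD1 window, shown because MXD1 rose most among the members, held no CACGTG. Its letters at chr2:69914859-69915040 (plus strand) are given with matches to the looser E-box CANNTG in capitals, a motif that also covers CACGTG and reads as itself on the other strand.
MXD1: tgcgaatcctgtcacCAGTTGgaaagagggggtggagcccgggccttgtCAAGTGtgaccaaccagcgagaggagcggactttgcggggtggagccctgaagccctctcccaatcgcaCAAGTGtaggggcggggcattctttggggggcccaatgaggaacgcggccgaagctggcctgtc
All 3 matches in the MXD1 window lie in this stretch. At least 1 match to CANNTG was present in 68.7% of all windows and at least 3 in 15.1%, so that the letters are a description of the window and not of binding.

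Total counts ranged from 32095456 to 40269820 in the DMSO libraries and from 31733667 to 35403841 in the MPM-1 libraries. The share of counts from genes of the mitochondrial genome was 8.28 to 9.11% with DMSO and 1.95 to 2.35% with MPM-1, and the TMM scaling factors were 1.03 to 1.07 and 0.93 to 0.97. Leaving the mitochondrial genes out of the library sizes left the side of the threshold unchanged for all 10 members. Of 11 colon epithelial markers 10 were in the table, and EPCAM stood at 676 ± 49.98 CPM (counts scaled to library size, SD, n = 3) with DMSO and 676 ± 33.3 with MPM-1. Of those 10, 4 rose, KRT8 (log2 fold change 0.42), KRT18 (0.89), KRT19 (0.89) and CDH1 (0.82), and 5 fell, with the largest falls in CDX2 (-2.20) and KRT20 (-2.03). Of 12 markers of other cell types only CD68 and COL1A1 were in the table, at 68.3 and 2.97 CPM with DMSO and 145 and 0.70 CPM with MPM-1. The part of these differences in the results on the network was not tested.

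MPM-1 was followed by opposite changes at the centre of the network: MYC fell about 3.11-fold, MXD1 rose 3.59-fold, and MAX, the partner of both, changed little. Of the 10 members, 4 rose (MXD1, MXI1, MNT and MLX), 3 fell (MYC, MXD3 and MXD4) and 3 passed in neither direction (MAX, MGA and MLXIP). Here "rose" and "fell" mean an adjusted p under 0.05 in the quasi-likelihood test of edgeR, with the Benjamini-Hochberg method applied over all genes, and at this threshold 27.7% of all genes were higher and 28.8% lower. The members' calls were therefore at about the frequency of the table as a whole. A stricter rule, an adjusted p under 0.01 with at least a doubling or halving (DEG), was met by 1 member that rose, MXD1, and 1 that fell, MYC, and by 5.58% (higher) and 8.75% (lower) of all genes. In 8 of the 10 members the CPM of the 3 MPM-1 libraries did not overlap that of the 3 DMSO libraries, against 64.3% of all genes. The median log2 fold change was 0.08 over the members and -0.03 over all genes.

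**Figure D1:**
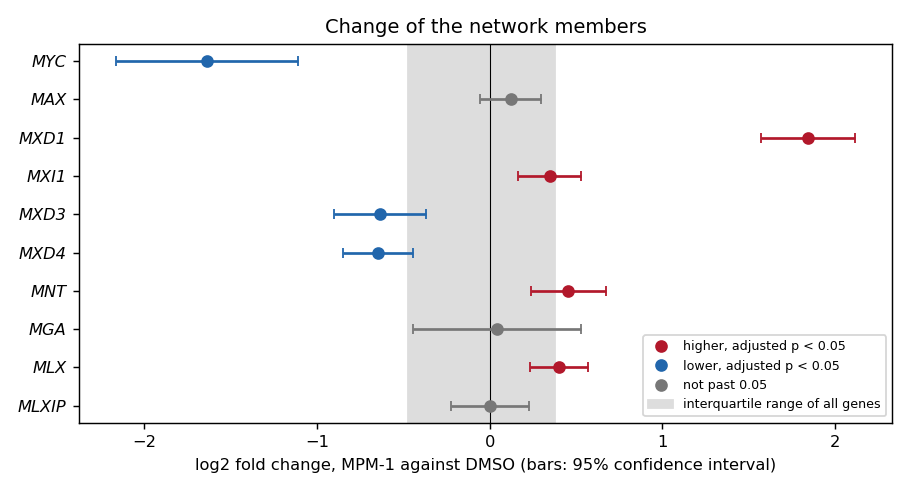
Log2 fold change (x axis, MPM-1 against DMSO) of each network member (y axis), with points for the edgeR estimate and bars for its 95% confidence interval; the grey band is the interquartile range of all 12982 genes (-0.47 to 0.38). MYC at -1.64 and MXD1 at 1.85 lie well outside the band on opposite sides, and the intervals of MAX, MGA and MLXIP include 0.

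MYC (ENSG00000136997; GENCODE v29, GRCh38, chromosome 8, 127735434 to 127741434, plus strand), the activator of the network, fell in every MPM-1 library. Its level was 68.5, 98.9 and 88.4 CPM in DMSO replicates 1 to 3 and 17.3, 36.6 and 28.4 CPM in MPM-1 replicates 1 to 3, from 2260, 4270 and 3521 counts and 527, 1126 and 952 counts. The lowest DMSO library thus stood above the highest MPM-1 library. The group means were 85.3 ± 15.4 and 27.4 ± 9.69 CPM (SD, n = 3), a log2 fold change of -1.64 (SE 0.24, 95% confidence interval -2.16 to -1.11) with an adjusted p of 0.000312577 in edgeR's quasi-likelihood test. In the table as a whole, 3.8% of genes had a lower log2 fold change. In bulk RNA, fewer cells that express a gene and less of its RNA per cell cannot be told apart.

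MYC was also unusually uneven between libraries of the same group. Its coefficient of variation, the SD over the mean of CPM, was 18.1% with DMSO and 35.3% with MPM-1. The median over genes within 2-fold of its level was 6.4% and 8.7%, and 96.8% and 98.6% of those genes varied less. MPM-1 replicate 1 was the lowest in its group, and leaving it out gave a log2 fold change of -1.38, the smallest fall over the 6 fits that each left out 1 library, while leaving out MPM-1 replicate 2 gave -1.87. The adjusted p stayed under 0.05 in each of them.

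MAX (ENSG00000125952), the shared partner of MYC, the MXD proteins, MNT and MGA, was steady. Its 3 DMSO libraries held 34.9, 34.5 and 34.0 CPM and its 3 MPM-1 libraries 36.2, 39.2 and 37.3 CPM. All MPM-1 libraries were above all DMSO libraries in CPM, yet the difference did not pass the test (log2 fold change 0.12, SE 0.08, 95% confidence interval -0.06 to 0.30, adjusted p = 0.217 in edgeR). The direction depended on the scaling, since with library size alone it was -0.03. In FPKM, which divides fragment counts by transcript length as well as by depth and is used here to compare genes, MAX averaged 13.7 ± 0.59 with DMSO and 13.0 ± 0.85 with MPM-1, and the libraries overlapped. The FPKM and library-size scales place the median of all genes at -0.13 to -0.18 on the log2 scale, against -0.03 with TMM.

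The ratio of MYC to MAX in FPKM therefore followed MYC. It was 2.35, 3.31 and 2.78 in the DMSO libraries and 0.54, 1.11 and 0.90 in the MPM-1 libraries, with means of 2.81 ± 0.48 and 0.85 ± 0.29 (SD, n = 3). With DMSO every library held more MYC than MAX transcript per length, and with MPM-1 only replicate 2 did. A transcript ratio says nothing of the amounts of the proteins.

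MXD1 (ENSG00000059728, chromosome 2, 69897688 to 69942945, plus strand), the founding MAX-binding antagonist (formerly MAD1), gave the largest rise of the network. It was counted at 53.8, 40.5 and 46.2 CPM in the DMSO libraries and at 179.9, 146 and 178 CPM in the MPM-1 libraries, so that the lowest MPM-1 library held more than double the highest DMSO library. The means were 46.8 ± 6.70 and 168 ± 19.1 CPM (SD, n = 3) with a log2 fold change of 1.85 (SE 0.12, 95% confidence interval 1.57 to 2.12, adjusted p = 3.37e-06 in edgeR). Only 205 of the 12982 genes had a higher log2 fold change, which is 1.6%. Annotated exons of MXD1 share 237 bases on the same strand with SNRNP27, a splicing factor gene that rose by less (log2 fold change 0.31, SE 0.08), and reads from the shared part cannot be assigned to either gene.

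In each group the library with the most MYC had the least MXD1. MYC was highest in DMSO replicate 2 and MPM-1 replicate 2, where MXD1 was lowest. With 3 libraries a group, this order is a description and was not tested. The ratio of MXD1 to MYC in FPKM was 0.32, 0.16 and 0.22 in the DMSO libraries and 4.397, 1.58 and 2.58 in the MPM-1 libraries. MYC exceeded MXD1 per length in all 3 DMSO libraries, and MXD1 exceeded MYC in all 3 MPM-1 libraries.

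**Figure D2:**
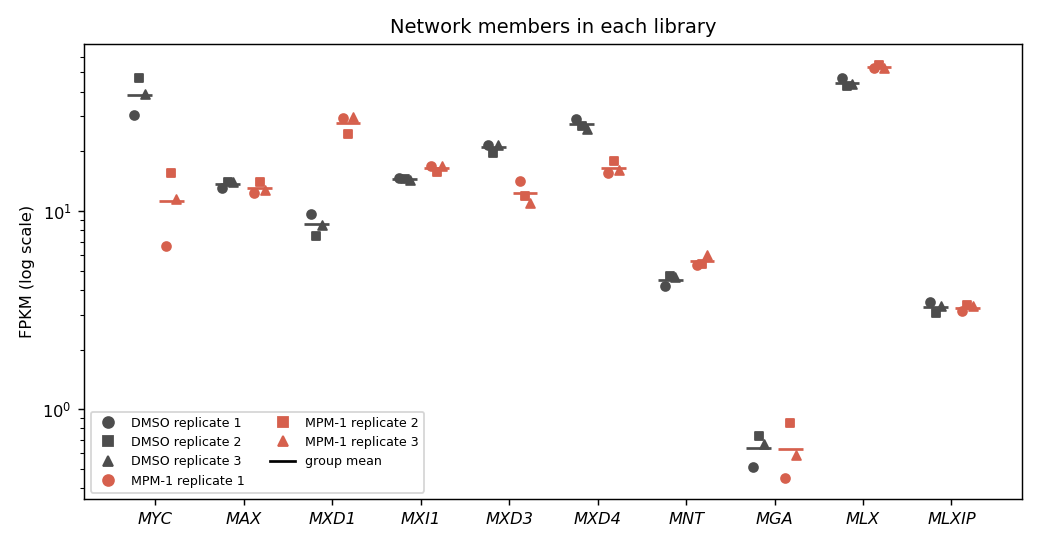
FPKM on a log axis (y) of each network member (x) in each library, DMSO in grey and MPM-1 in red, with a marker shape per replicate and a line at each group mean. MYC drops from a mean of 38.6 to 11.2 FPKM while MXD1 climbs from 8.54 to 27.8, and MGA lies lowest at 0.64 and 0.63.

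The other MXD genes divided into 1 that rose and 2 that fell. MXI1 (ENSG00000119950; also called MXD2), which like MXD1 brings SIN3 to MAX, was counted at 41.6, 39.8 and 38.0 CPM with DMSO and at 52.8, 47.9 and 51.3 CPM with MPM-1. The groups did not overlap, and the log2 fold change was 0.35 (SE 0.08, adjusted p = 0.00489 in edgeR). This call did not hold with library size alone (0.20, adjusted p = 0.0518 in edgeR) or in limma on the FPKM values (0.17 to 0.18, adjusted p 0.0895 to 0.103).

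MXD4 (ENSG00000123933) was the most abundant MXD gene with DMSO. It fell from 113, 101 and 95.02 CPM to 62.7, 71.1 and 63.9 CPM, with no overlap and a log2 fold change of -0.64 (SE 0.09, adjusted p = 0.000268 in edgeR). MXD3 (ENSG00000213347), the member of the family best known from cells in S phase, fell from 37.0, 32.2 and 35.1 CPM to 26.1, 20.9 and 20.2 CPM, again with no overlap and a log2 fold change of -0.63 (SE 0.12, adjusted p = 0.00143 in edgeR). MXD3 exons share 926 bases with RAB24 on the same strand and 1158 bases with PRELID1 on the opposite strand, and the strandedness of the libraries was not given in the sources used here. Both neighbours also fell, RAB24 by 0.30 and PRELID1 by 0.34 on the log2 scale, and the part of shared reads in the fall of MXD3 was not tested.

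Summed over MXD1, MXI1, MXD3 and MXD4, the family differed in total by less than the spread between libraries on the deposited FPKM scale, while its make-up changed. The sum was 75.1, 68.6 and 70.3 FPKM in the DMSO libraries and 76.1, 69.9 and 73.6 FPKM in the MPM-1 libraries, with means of 71.3 ± 3.35 and 73.2 ± 3.12 (SD, n = 3) and overlapping ranges. This near equality depends on the scaling: with FPKM divided by the TMM factors, a choice made after the values were seen, the means were 67.8 ± 4.72 and 77.1 ± 4.85 with ranges that still overlapped, and the summed TMM-scaled CPM, which weights long transcripts more, was 214 to 246 with DMSO and 286 to 321 with MPM-1, without overlap. The shares of the sum are the same with or without the TMM factors. MXD1 supplied 12.8, 10.9 and 12.1% of the sum with DMSO and 38.6, 35.0 and 40.4% with MPM-1. MXD4, the largest part with DMSO at a mean of 38.4%, came to 22.6% with MPM-1, and MXD3 went from 29.3 to 16.9%. The share of MXI1 was 20.3 and 22.5%. Because MYC fell, the summed MXD level was 1.91 ± 0.50 times that of MYC with DMSO and 7.43 ± 3.57 times with MPM-1.

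**Figure D3:**
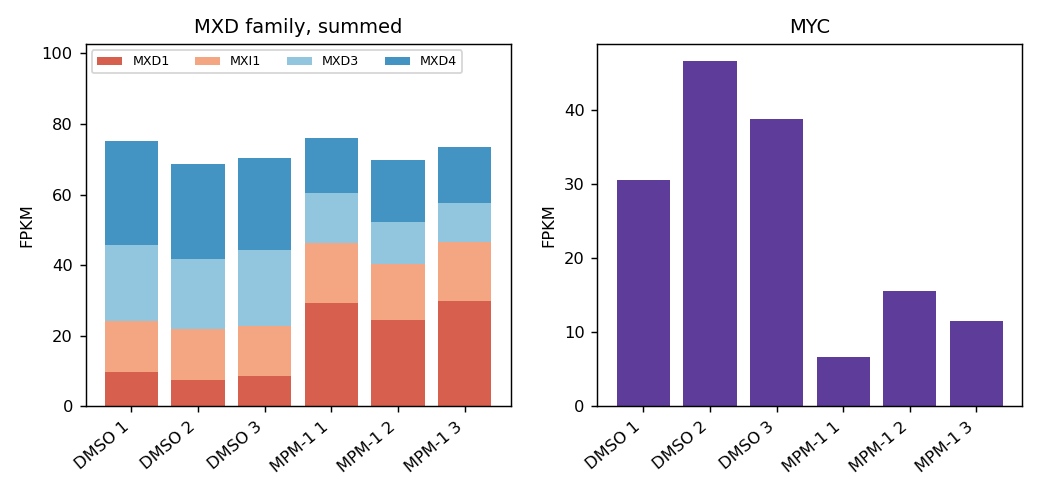
Left, FPKM (y axis) of MXD1, MXI1, MXD3 and MXD4 stacked for each library (x axis); right, FPKM of MYC in the same libraries. The stacks reach 68.6 to 76.1 FPKM, as deposited, in all 6 libraries, while the MXD1 part grows from at most 12.8% to at least 35.0% and MYC is lower in each MPM-1 library than in any DMSO library.

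MNT (ENSG00000070444), the broadly expressed MAX partner that occupies E-boxes in dividing and resting cells alike, rose moderately. Its libraries held 20.9, 22.7 and 22.5 CPM with DMSO and 29.5, 28.7 and 32.7 CPM with MPM-1. The groups did not overlap, with a log2 fold change of 0.46 (SE 0.10, adjusted p = 0.00291 in edgeR). In FPKM the ratio of MNT to MYC was 0.12 ± 0.02 with DMSO and 0.55 ± 0.23 with MPM-1 (SD, n = 3).

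MGA (ENSG00000174197), a very large protein with a T-box domain besides its MAX-binding domain, was the lowest member. It stood at 7.46, 10.3 and 9.39 CPM with DMSO and at 6.89, 11.7 and 9.32 CPM with MPM-1, and the groups overlapped. The log2 fold change was 0.04 with a 95% confidence interval of -0.44 to 0.53 (adjusted p = 0.885 in edgeR), an interval too wide to exclude moderate changes in either direction.

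Of the MLX branch, the hub rose and its partner did not pass. MLX (ENSG00000108788) was the member with the highest FPKM in both groups. It was counted at 113, 100.3 and 103 CPM with DMSO and at 140.3, 141 and 138 CPM with MPM-1, with no overlap and a log2 fold change of 0.40 (SE 0.07, adjusted p = 0.00142 in edgeR). PSMC3IP, which shares 770 exon bases with MLX on the opposite strand, was much lower, at 4.78 and 4.42 CPM. MLXIP (ENSG00000175727) held 28.2, 23.7 and 25.2 CPM with DMSO and 27.2, 24.9 and 25.05 CPM with MPM-1. The groups overlapped, and the log2 fold change of 0.00 had a 95% confidence interval of -0.23 to 0.23. The ratio of MLX to MAX in FPKM was 3.24 ± 0.30 with DMSO and 4.09 ± 0.17 with MPM-1 (SD, n = 3).

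Ordered by mean FPKM, the DMSO cells expressed MLX (44.3), MYC (38.6), MXD4 (27.4), MXD3 (20.9), MXI1 (14.5), MAX (13.7), MXD1 (8.54), MNT (4.51), MLXIP (3.28) and MGA (0.64). Only the neighbours MLX and MYC overlapped between libraries in that order, with MYC between 30.5 and 46.6. With MPM-1 the order was MLX (53.2), MXD1 (27.8), MXD4 (16.5), MXI1 (16.5), MAX (13.0), MXD3 (12.4), MYC (11.2), MNT (5.56), MLXIP (3.26) and MGA (0.63). There MXD4 overlapped MXI1, and MAX, MXD3 and MYC overlapped one another, with MYC between 6.67 and 15.5. MYC thus went from second to seventh place and MXD1 from seventh to second.

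The genes that the network acts on were read from lists assembled for these factors, chosen with earlier results of these data known. Their counts are therefore descriptions of the lists and not independent tests. Among 60 MYC targets, 25 fell (41.7%, against 28.8% of all genes) and 7 rose (11.7%, against 27.7%). Their median log2 fold change was -0.22 against -0.03 for all genes. Here 26 of the 49 targets with a promoter entry (53.1%) held CACGTG, against 8.8% of all 27305 genes in the promoter table. The sets are unlike, since only 9598 of the 12982 tested genes had a promoter entry and the 27305 include untested genes. The share among tested genes alone was not computed. PLK1, a mitotic kinase, fell from 118 ± 7.72 to 29.1 ± 1.66 CPM (log2 fold change -2.02), and TMEM97, a sterol-regulated membrane protein, from 28.3 ± 1.90 to 12.3 ± 0.79 CPM (-1.20). Both changes had non-overlapping libraries.

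Not all classic MYC targets fell. ODC1, the first enzyme of polyamine synthesis, had 217, 254 and 246 CPM with DMSO and 641, 735 and 772 CPM with MPM-1, a log2 fold change of 1.58 (SE 0.09). HK2, the hexokinase that is bound to mitochondria, rose from 48.6 ± 7.40 to 103 ± 17.3 CPM (1.09, SE 0.14). The nucleolar proteins NCL (-0.18) and NPM1 (0.09) passed in neither direction. NOP16, NOP2 and NOP56, which act in ribosome assembly, fell by 0.83, 0.76 and 0.66 on the log2 scale, whereas RRP12, which acts in the same process, rose by 0.86. Without 6 cell cycle genes of the list (PLK1, PLK4, MCM4, MCM5, UNG and CDK4), a choice made after the values were seen, 20 of 54 fell (37%) and 7 rose (13%), and the median was -0.17.

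The listed genes that MYC is known to repress were mostly higher. Of 13 listed, 12 were in the table. Of these, 8 rose (66.7%, against 27.7% of all genes) and 2 fell (16.7%, against 28.8%), with a median log2 fold change of 0.78. NDRG1, a stress-responsive gene named for its repression by MYC family members, rose from 153, 133 and 167 CPM to 885, 568 and 651 CPM, a log2 fold change of 2.22 (SE 0.16). CDKN2B, the CDK inhibitor p15, rose from 43, 34 and 27 counts to 142, 116 and 78 counts (1.96, SE 0.37). NDRG2, of the same family as NDRG1, went the other way, from 14.01 ± 0.81 to 2.79 ± 0.54 CPM (-2.33), and CEBPA, a differentiation factor, fell by 1.19 on the log2 scale. The genes of this list also respond to other regulators, and their part was not tested.

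**Figure D4:**
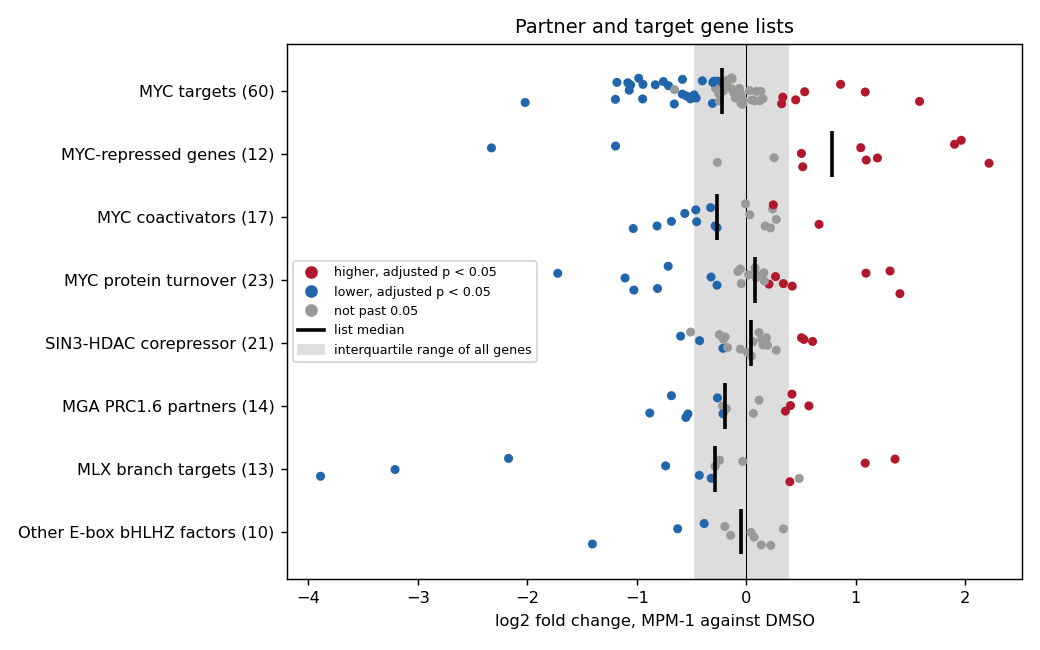
Log2 fold change (x axis) of each gene of 8 lists (y axis, with the number of genes in the table), coloured by whether it rose or fell at an adjusted p under 0.05; black bars mark list medians and the grey band the interquartile range of all genes. The MYC targets sit left of 0 with a median of -0.22, the MYC-repressed genes sit right with a median of 0.78, and the MLX branch list holds the genes with the largest falls.

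The cofactors that MYC uses were lower more often than higher. Of 17 listed cofactor genes, 9 fell (52.9%, against 28.8% of all genes) and 2 rose (11.8%, against 27.7%), with a median of -0.27. The list, drawn up as coactivators, is not of these alone, and ZBTB17 and SMARCB1 are among those that fell. RUVBL1 and RUVBL2, a pair of ATPases of chromatin remodelling complexes, fell from 108 ± 9.48 to 52.9 ± 4.46 CPM (log2 fold change -1.03) and from 192 ± 7.31 to 109 ± 5.00 CPM (-0.82). PAF1, of the elongation complex that MYC joins, rose by 0.25, a call lost without DMSO replicate 2 or 3 or MPM-1 replicate 1 or 3 (0.17 to 0.26) and on the FPKM and library-size scales.

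Genes that control the stability of MYC protein moved both ways. Of 23, 7 rose and 7 fell (30.4% each), with a median of 0.08, shares close to those of all genes (27.7% and 28.8%). Among those that rose were PIM1, a kinase that phosphorylates and stabilises MYC (60.6 ± 7.39 to 160.3 ± 23.7 CPM, log2 fold change 1.40), and USP36, a nucleolar deubiquitinase of MYC (27.7 ± 3.04 to 68.7 ± 14.3 CPM, 1.31). Among those that fell were SKP2, the ubiquitin ligase subunit that acts on MYC and p27 (44.8 ± 9.18 to 13.6 ± 2.37 CPM, -1.72), and FBXL14, another ubiquitin ligase subunit (6.04 ± 1.06 to 2.80 ± 1.23 CPM, -1.11). The FBXL14 call was lost without DMSO replicate 2 (-1.005, adjusted p = 0.0535 in edgeR). FBXW7, the best-known ligase for MYC, had a log2 fold change of 0.02. PIM1, USP36, SKP2 and FBXL14 were named for the size of their change. The other genes that rose were PIM3 (1.09), AXIN1 (0.42), GSK3A (0.34), GSK3B (0.27) and PPP2R5A (0.21). The others that fell were TRIM32 (-1.03), CIP2A (-0.81), USP37 (-0.71), USP7 (-0.32) and USP28 (-0.27). The list mixes genes that stabilise MYC with genes that promote its breakdown, so its counts give no direction for MYC protein.

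The corepressors of the antagonists moved in both directions. Of 21 SIN3-HDAC genes, 3 rose and 3 fell (14.3% each, against 27.7% and 28.8% of all genes), with a median of 0.05. The number that fell was 1 with DESeq2 size factors, 9 with library size alone and 7 in limma on FPKM. The scaffold SIN3A fell (-0.60, SE 0.12), whereas SIN3B had 0.27 and did not pass. The subunits ING2 (0.61) and SAP18 (0.53) rose and SAP30 (-0.43) fell, the last with an adjusted p of 0.0492 in edgeR and a call lost without DMSO replicate 2 or 3 or MPM-1 replicate 1 or 3 (-0.44 to -0.32). The SAP30 call was also lost with DESeq2 size factors (-0.41, adjusted p = 0.0542 in edgeR). Of 14 PRC1.6 partners of MGA, 4 rose (28.6%, against 27.7% of all genes) and 6 fell (42.9%, against 28.8%), with a median of -0.20. The lists share genes. CBX3, which fell, is also listed as a MYC target, WDR5 as a MYC cofactor, and HDAC1 and HDAC2 as SIN3-HDAC genes. RNF2 (0.57) and RYBP (0.42), both of the Polycomb ubiquitin ligase, rose, and TFDP1 (-0.88), the dimer partner of E2F6, and WDR5 (-0.68) fell. RNF2 did not pass with library size alone (0.42, adjusted p = 0.0891 in edgeR) or without DMSO replicate 1 or 2 or MPM-1 replicate 1 (0.44 to 0.58). It also did not pass in limma on the FPKM values (0.29 to 0.40, adjusted p 0.0872 to 0.101).

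Among the lists of cofactors and targets, the largest falls were in the MLX branch. TXNIP, the glucose-responsive brake on glucose uptake and the standard readout of MLXIP with MLX, went from 143.4, 146.8 and 141 CPM with DMSO to 11.2, 10.2 and 7.68 CPM with MPM-1. Its log2 fold change was -3.89 (SE 0.13, adjusted p = 1.09e-07 in edgeR), a 14.8-fold fall. ARRDC4, its close relative and also a known target of MLXIP with MLX, went from 59.6, 62.1 and 65.0 CPM to 6.63, 6.73 and 6.82 CPM (-3.21, SE 0.09). Both fell with MLX at 1.32 times its DMSO level and with no detected change of MLXIP.

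**Figure D5:**
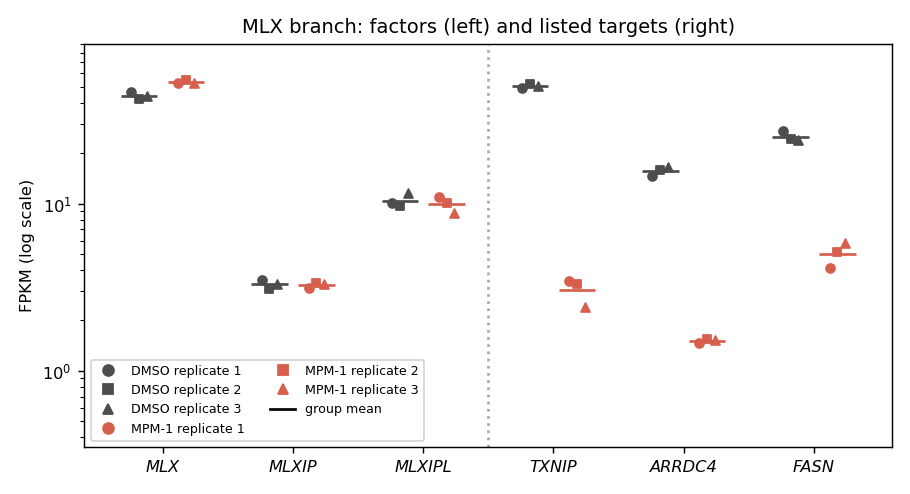
FPKM on a log axis (y) of MLX, MLXIP and MLXIPL and of the listed targets TXNIP, ARRDC4 and FASN (x) in each library, DMSO in grey and MPM-1 in red, with a marker shape per replicate and lines at group means. The factors differ little between groups, whereas TXNIP goes from a mean of 50.5 to 3.05 FPKM and ARRDC4 from 15.6 to 1.51.

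Of all 14 listed targets of the branch, 13 were in the table, 6 fell (46.2%) and 3 rose (23.1%), with a median of -0.28. Over all genes, 28.8% fell and 27.7% rose. Without TXNIP and ARRDC4, 4 of 11 fell (36.4%) and 3 rose (27.3%), nearer to the shares of all genes. FASN, the fatty acid synthase and a target of MLXIPL as well as of SREBP1, had 230, 202 and 199 CPM with DMSO and 39.2, 46.9 and 54.1 CPM with MPM-1 (log2 fold change -2.17). HK2, which is also on the list of MYC targets, and KLF10, a TGF-beta-inducible repressor, rose (1.09 and 0.40). ARRDC3, an arrestin related to TXNIP, rose by the test (1.36, adjusted p = 0.027 in edgeR), but its libraries overlapped at 4.58, 5.07 and 6.50 CPM and 4.60, 22.7 and 14.2 CPM. Without MPM-1 replicate 2 its log2 fold change was 0.83 with an adjusted p of 0.108 in edgeR, and the call was also lost without DMSO replicate 1 or 2 or MPM-1 replicate 3 (1.26 to 1.348). In limma on the FPKM values the ARRDC3 call was lost as well (0.67 to 0.94, adjusted p 0.135 to 0.199).

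Of 12 other factors with the same type of DNA-binding domain, 10 were in the table. In edgeR 3 fell (30%), close to the 28.8% of all genes, and 0 rose, against 27.7% of all genes. The counts were the same in DESeq2 and at an unadjusted p under 0.05. SREBF1, the regulator of lipid synthesis genes, fell from 159 ± 9.68 to 60.0 ± 5.59 CPM (-1.41, SE 0.09), and SREBF2, its relative for cholesterol synthesis, fell by 0.39 on the log2 scale. MYCL, the paralog of MYC, was low and fell from 4.44 ± 0.18 to 2.88 ± 0.55 CPM (-0.63, adjusted p = 0.0349 in edgeR). This call was lost when any library but MPM-1 replicate 2 was left out (-0.66 to -0.53). MLXIPL had a log2 fold change of 0.14 (adjusted p = 0.285 in edgeR), and the lysosomal regulators TFEB and TFE3 had -0.20 and 0.04.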

How the data were processed

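The 6 mRNA libraries of SW480 cells, 3 with DMSO and 3 with MPM-1, were sequenced by a service company. The authors deposited 1 table with raw counts and FPKM values per gene and library for 12982 genes, 12127 with human Ensembl identifiers and 855 unplaced new genes. The lowest total count of a gene was 115, so low genes had been removed. The submitters' processing notes name HISAT2, DESeq2 and mm10, a mouse build, although the identifiers are human; the build and annotation behind the counts are therefore uncertain, and the counter is not given in the sources used here. The FPKM values were deposited by the authors and were used to compare genes; counts were used for tests. The table also holds the authors' fold changes and FDR values, which were not used. CPM values were computed on TMM-scaled library sizes.

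Counts were fitted with edgeR 4.0.16 (quasi-likelihood, TMM scaling, no covariate) in R 4.3.3 on all genes, and p-values were adjusted over all of them by Benjamini and Hochberg. The SE is the log2 fold change divided by the square root of F. DESeq2 1.42.0, limma 3.58.1 on log2(FPKM + 0.1), other pseudocounts (0.01 and 1), other scalings, a mean count minimum of 50, a mean FPKM minimum of 1 and leaving out each library were alternatives. On simulated counts for the 12982 genes, 190 of 200 genes were recovered where the simulated log2 fold change was 1, and 200 of 200 where it was 2. Of the unchanged genes, 10 and 6 were called. Only those 200 genes were changed and all genes had the common dispersion of 0.0231, unlike in the data, so that recovery in the data may differ. No pair of libraries agreed within sampling noise. The members and lists were chosen with earlier results of these data known. All members are named, and per list the 2 largest rises and 2 largest falls past an adjusted p of 0.05, with other list members named after their values were seen. One gene that this rule would name is not reported here. Coordinates are from GENCODE v29 (GRCh38) and promoters from RefSeq. Members had at least 210 counts in each library.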

Additional observations from a re-analysis of the deposited data

How the results depend on the processing

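The counts of members that rose (3 or 4) and fell (3), and of DEGs among them, stayed within 1.5 times under every alternative, and the calls of MYC, MXD1, MXD3, MXD4, MNT and MLX held in each. Members without a call changed sign. MAX had a log2 fold change of -0.028 with library size alone and of -0.070, -0.0656, -0.0705 and -0.070 in limma on log2(FPKM + 0.1), + 1, + 0.01 and without the filter. MGA had -0.1077 with library size alone, -0.0449 in limma without the filter (it is under the FPKM minimum in the others) and -0.1317 to 0.2306 leaving out 1 library. MLXIP had -0.1481 with library size alone, -0.0038 with at least 50 counts, -0.0098, -0.0079, -0.010 and -0.0098 in the limma fits and -0.053 to 0.0726 leaving out 1 library.

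List counts moved as follows. MYC cofactor genes that rose numbered 1 with library size alone and in the limma fits, 4 in DESeq2 and 1 to 3 leaving out 1 library (1 without DMSO replicate 2 or 3 or MPM-1 replicate 3). Turnover genes that rose numbered 4 with library size alone, 4 in limma without the filter and 4 to 7 leaving out 1 library (4 without DMSO replicate 3). SIN3-HDAC genes that fell numbered 1 with DESeq2 size factors, 9 with library size alone, 7 in the limma fits and 1 to 3 leaving out 1 library (1 without DMSO replicate 2 or 3 or MPM-1 replicate 3), and those that rose 3 to 5 (5 without MPM-1 replicate 2). PRC1.6 partners that rose numbered 1 with library size alone, 2 in the limma fits and 2 to 4 leaving out 1 library (2 without DMSO replicate 2 or MPM-1 replicate 1). MLX branch targets that rose numbered 1 in the limma fits and 1 to 3 leaving out 1 library (1 without DMSO replicate 1). Of the genes next to MYC, 0 rose with library size alone and in the limma fits, and 0 fell with at least 50 counts and in the filtered limma fits. Over all genes, 3596 rose and 3740 fell, against 2589 and 4871 with library size alone and 2245 and 3988 in limma on log2(FPKM + 0.1). The cause of these moves was not tested.

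Same-numbered libraries had deviations that correlated at 0.021, 0.114 and -0.074, within the -0.13 to 0.115 of differently numbered ones. A pairing was therefore not seen, and with 3 libraries a group a weak one could be missed. A fit with the replicate block gave 3475 genes that rose and 3642 that fell, a log2 fold change of -1.68 for MYC, and among the members and the genes named by the rule for lists only the MYCL call was lost (-0.64, adjusted p = 0.0549 in edgeR).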

Other observations

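Genes near MYC in the genome were mostly outside the table: of 8 listed, 2 were in it. FAM84B (also LRATD2) had 43.1, 38.0 and 40.5 CPM with DMSO and 45.3, 60.8 and 63.0 CPM with MPM-1, a log2 fold change of 0.48 (adjusted p = 0.00884 in edgeR), where MYC fell. The FAM84B call was lost with library size alone (0.33, adjusted p = 0.0505 in edgeR) and in limma on the FPKM values (0.28 to 0.31, adjusted p 0.103 to 0.132). POU5F1B, a retrogene whose reads may be shared with POU5F1, had 46, 44 and 41 counts with DMSO and 0, 0 and 8 counts with MPM-1, so that it fell with MYC at a very low level. Its fitted log2 fold change was -3.72 (SE 0.83, adjusted p = 0.0037 in edgeR), a value that rests on the counts of 1 MPM-1 library.

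The genes whose log2 CPM followed MYC most closely over the 6 libraries were CETN3, a centrin (Pearson r = 0.999), IMPA2, an inositol monophosphatase (0.9988), and RFX7, a transcription factor (0.9988), out of 12804 genes that averaged 1 CPM or more. Those closest to MXD1 were NBDY, a microprotein of mRNA decapping bodies (0.9998), the unplaced NewGene_7531 (0.9998) and SLC25A25, a mitochondrial ATP-Mg and phosphate carrier (0.9995). The 6 libraries span both treatments and were not centred by group, so that genes that differ between the treatments correlate highly. In all, 925 genes for MYC and 1670 for MXD1 exceeded 0.95, and the genes named are descriptions of profile only. SLC25A25 rose by a log2 fold change of 1.85, the same as MXD1 to 2 decimals.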
